A study of Arabidopsis thaliana with 4 samples.

Results

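Leaves of phosphate-deprived Arabidopsis thaliana were compared between 100 h and 4 h, on 2 of the 4 arrays of a study that asked which genes respond to phosphate deficiency. The pair was taken by its labels, solution and hours, and each side is 1 array. Plants of the accession Col-5 grew on agar with 1% sucrose until 21 days, with a 16 h day, and then stood in hydroponics under constant light at 24 C and 80% humidity. Rosette leaves were taken at growth stage 6.10, either 4 h or 100 h after the nutrients were removed. On both arrays the solution lacked potassium phosphate and carried 0.125 mM additional potassium sulphate. The other 2 arrays, used here only beside this comparison, came from plants in full nutrients with 0.25 mM phosphate at the same labelled times. The titles of the pair carry the codes PO6 at 4 h and P72 at 100 h. Among the full-nutrient arrays the code is NPK at 4 h and P24 at 100 h, so the later of them bears a code like those of the no-phosphate pair. No number in these codes equals the labelled hours, and the labels do not explain them. The labels were followed, and every full-nutrient value at 100 h rests on that array being labelled correctly. The labels also do not say how many plants gave the RNA of an array. No ratio between 2 single arrays has a replicate, so these ratios are sizes without a test.

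Plants take up phosphorus as inorganic phosphate and need it for nucleic acids, phospholipids and the sugar phosphates that photosynthesis makes and starch synthesis releases. Leaves that run short recycle phosphate from nucleic acids and membrane lipids, and many accumulate sugars, starch and anthocyanin. Leaf defence genes, cold and drought genes and photosynthesis genes also respond to light, wounding and the move to a new medium, so time in hydroponics is itself a condition of every array.

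Values are linear intensities per probe set, a set of short DNA probes that match 1 transcript or a few related ones. Intensities under 7.25 were set to that floor. A call, higher or lower, needed a 2-fold ratio of 100 h over 4 h and an intensity of at least 22.45, called the level here, on the brighter array. Of 8247 probe sets without the controls, 4534 met the level on the brighter of the 2 arrays. Of these 695 (15.3%) were higher at 100 h and 790 (17.4%) were lower, and the median log2 ratio was -0.02. Of the calls, 284 of the higher and 290 of the lower probe sets name 1 gene. Without phosphate 32.8% of probe sets thus passed 2-fold in either direction. In full nutrients 291 of 4516 (6.44%) were higher and 572 (12.7%) lower over the same hours. Among 4294 probe sets at the level in both solutions, the log2 ratio had an SD of 1.23 without phosphate and 0.88 in full nutrients.

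All 4 arrays had been scaled to a trimmed mean intensity of 100.2, so a difference in total mRNA between them cannot be seen. The spike-in controls are labelled RNAs added to the hybridisation mix, so they do not report the amount of mRNA. They did not follow the trimmed-mean scale. Their log2 ratio of 100 h over 4 h without phosphate was -0.40 ± 0.19 (SD over 9 control probe sets of the same 2 arrays). It was below 0 for 9 of 9. In full nutrients it was 0.15 ± 0.11 (SD, 9 control probe sets). Scaled to these controls, 1365 probe sets were higher and 532 lower, a share of 72% higher among the calls against 46.8% as reported, and the median of all ratios moved to 0.42. The scanner background was 69.92 on the 100 h array and 56.94 on the 4 h array, against 55.21 and 49.74 in full nutrients. The intensity ratio of 3' to 5' probe sets of GAPDH, a sign of RNA integrity, was 2.12 at 100 h and 2.61 at 4 h, and that of ubiquitin was 2.97 and 2.57, the opposite order. In full nutrients the GAPDH ratio was higher, 4.52 at 100 h and 4.07 at 4 h, and that of ubiquitin 3.35 and 3.09. The part of background, spike-in level and RNA integrity in the ratios was not tested. Leaf genes were bright on both arrays, for example RCA, Rubisco activase, at 4585.8 and 5118.5, and of 5 leaf markers tested 3 were higher at 100 h, with a median log2 ratio of 1.21. The root and flower markers had no named probe set and were not analysed here. In whole leaves, fewer cells of a type and less RNA per cell cannot be told apart.

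**Figure D1:**
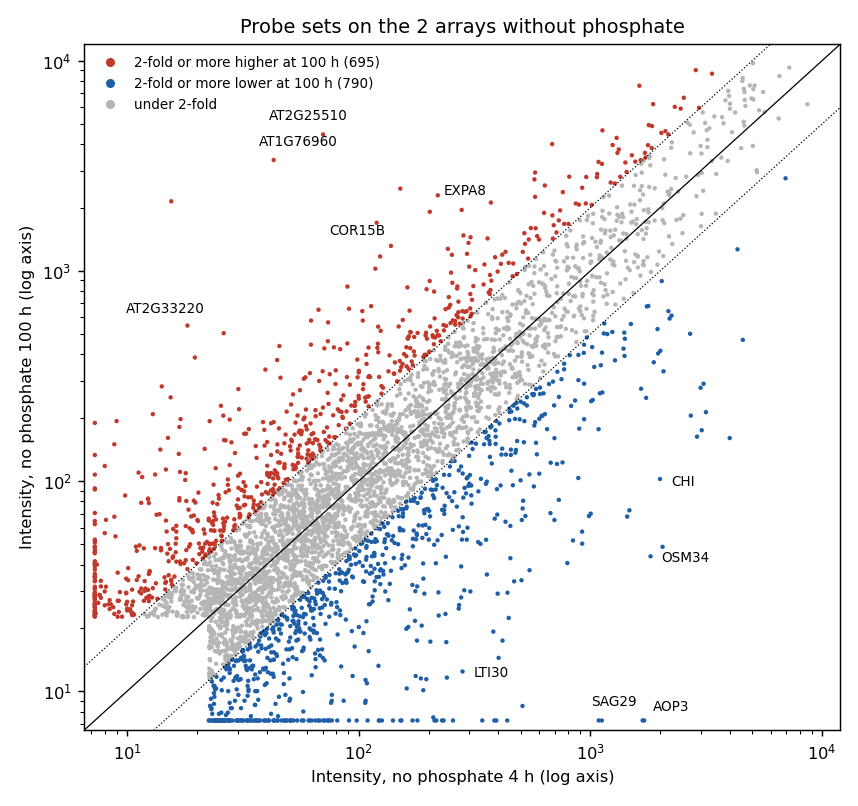
Intensity of 4534 probe sets on the no-phosphate arrays at 4 h (horizontal, log axis) and 100 h (vertical, log axis), with intensities under 7.25 drawn at that floor. The solid line marks equal intensity and the dotted lines 2-fold; 695 probe sets lie on or above the upper line and 790 on or below the lower one.

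Large ratios lay more often below than above 1. At 4-fold or more, 164 probe sets were higher and 248 lower. At 8-fold or more the counts were 46 and 102, and at 16-fold or more 14 and 44. By brightness, 2-fold calls were more often lower than higher in each range under 300 and more often higher above 1000. Between 300 and 1000 they were nearly equal, 133 higher and 135 lower. Among 1260 probe sets whose brighter array lay between 22.45 and 50, 12.9% were higher and 17.8% lower. Among the 380 at 1000 or more, 24.5% were higher and 13.9% lower, with a median log2 ratio of 0.38. Near the thresholds the counts were as follows. The 148 probe sets just inside the level held 24 higher and 29 lower, and the 152 just under it would have held 22 and 34. Just past 2-fold lay 183 probe sets and just under it 233.

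The 20 named genes with the lowest ratios above the floor on both arrays began with OSM34 and held further genes of pathogen defence. OSM34, which encodes the antifungal protein osmotin, had an intensity of 1817.0 at 4 h and 43.8 at 100 h without phosphate, 41.5-fold lower. In full nutrients it had 973.6 and 103.1. The 4 h arrays were thus the high ones in both solutions, and the 100 h array without phosphate was the lowest of the 4. AT4G16260, a beta-1,3-glucanase that cuts fungal wall glucan, had 1472.7 at 4 h and 72.5 at 100 h, a log2 ratio of -4.34, beside 795.7 and 159.9 in full nutrients. The chitinase gene CHI had 1996.8 and 102.2, 19.5-fold lower, beside 1660.5 and 318.3. As for OSM34, both genes were highest at 4 h without phosphate and lowest at 100 h without phosphate.

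LTI30, a dehydrin made in cold and drought, had 280.3 at 4 h and 12.4 at 100 h, 22.6-fold lower, beside 258.8 and 20.5 in full nutrients. ALDH7B4, an aldehyde dehydrogenase of stress detoxification, had 730.2 and 81.3, beside 572.2 and 142.6. AT4G33150, which encodes the bifunctional enzyme that starts lysine breakdown, had 195.6 and 11.4, beside 132.0 and 22.4. In these genes the time ratio had the same sign in both solutions and was the larger without phosphate, which the choice by that ratio favours. GH3.3, which joins auxin to amino acids, had 108.4 and 10.9, a log2 ratio of -3.31, and it differed from these in that its highest array was the full-nutrient one at 4 h, at 187.3. Hsp70-2, a chaperone, had 185.2 and 11.5, and SDH1-1, the flavoprotein of succinate dehydrogenase in the mitochondrion, had 220.7 and 29.5. AT2G34810 and AT1G30700, both of the berberine bridge enzyme-like family of oxidases, had log2 ratios of -2.94 and -2.83, and the other probe set of AT1G30700 had -2.35. They were the exceptions among the 20, because their lowest array was that of full nutrients at 100 h, at 45.2 and 11.7. The 20 were picked for a high 4 h and a low 100 h array, so their order on these 2 arrays is fixed by the choice. That the 100 h array without phosphate was often the lowest of the 4 is favoured by it. All 20 were also at least 2-fold lower at 100 h in full nutrients, a pair of arrays that shares none with this comparison.

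Some genes passed from bright at 4 h to below the floor at 100 h, where only a bound can be given. AOP3, a dioxygenase that modifies the side chain of glucosinolates, had 1706.0 at 4 h and 5.70 at 100 h, at least 235-fold lower. Its full-nutrient arrays were at 367.8 and 1119.5, so only the 100 h array without phosphate was dim. SAG29, a sugar transporter of the SWEET family that is known from senescing leaves, had 1085.4 and 6.10, at least 150-fold lower, beside 177.7 and 38.6. Its 4 h array without phosphate was the brightest of the 4. AT1G09500, related to cinnamyl alcohol dehydrogenases of lignin synthesis, was at least 154-fold lower by 1 probe set and at least 60.3-fold lower by the other, and the 4 h values were 1119.4 and 437.3. The chitinase family gene AT2G43620 had 392.2 and 6.4, at least 54.1-fold lower. Its neighbour AT2G43610 was not called, with a log2 ratio of 0.2 without phosphate. The peroxidase gene AT5G64120 had 384.8 and 6.90, at least 53.1-fold lower. In full nutrients AT1G09500, AT2G43620 and AT5G64120 were also lower at 100 h, but stayed above the floor. In all, 115 of the 790 lower and 63 of the 695 higher probe sets had 1 array at the floor.

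**Figure D2:**
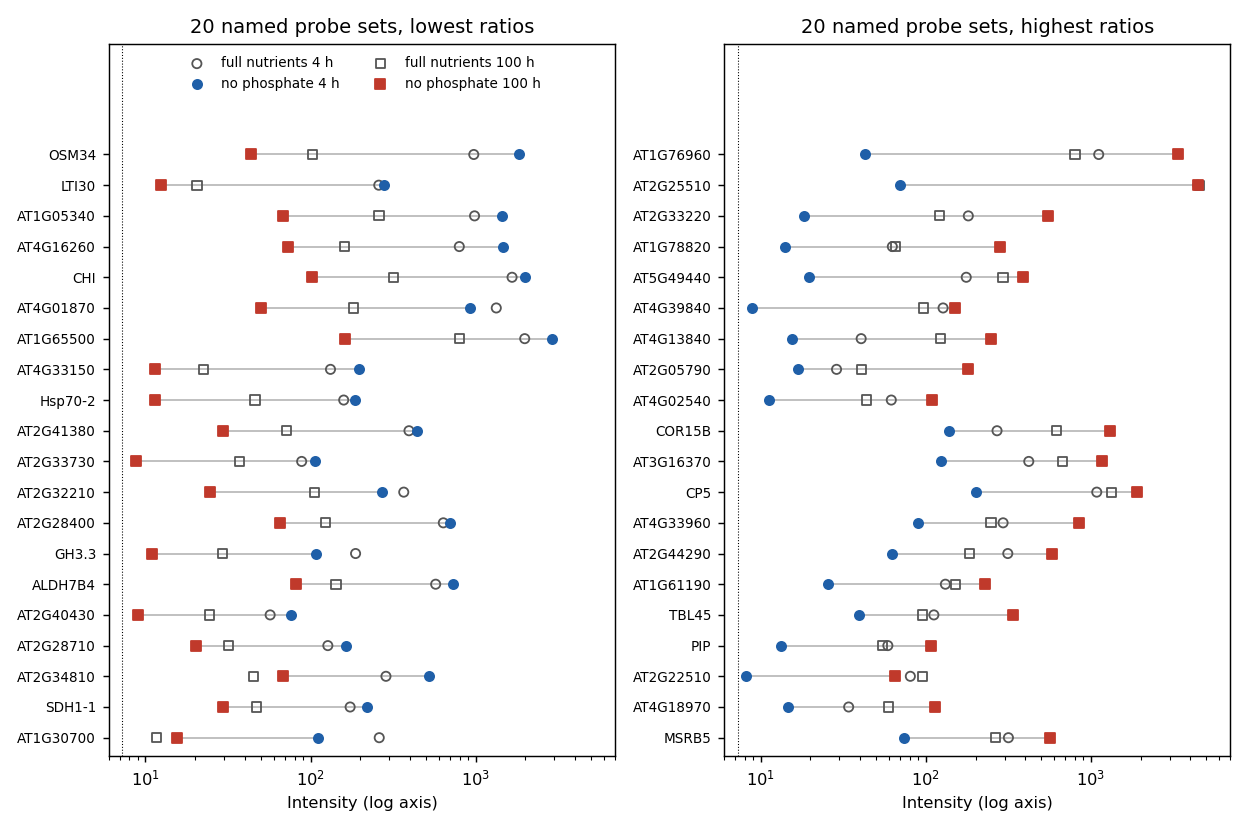
Intensity (horizontal, log axis) of the 20 lowest and the 20 highest named probe sets above the floor on both no-phosphate arrays, on each of the 4 arrays; grey lines join 4 h to 100 h without phosphate and the dotted line marks the floor of 7.25. On the left the full-nutrient arrays spread in the same order of time as the no-phosphate arrays, and on the right the 4 h array without phosphate is the lowest of the 4 for all 20.

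The 20 named genes with the highest ratios showed another arrangement of the 4 arrays. AT1G76960 had 42.9 at 4 h and 3366.6 at 100 h without phosphate, 78.5-fold higher, beside 1114.8 and 799.9 in full nutrients. AT2G25510 had 70.1 and 4452.4, 63.5-fold higher, beside 4438.1 and 4554.7. In AT2G25510 the 100 h value without phosphate lay between both full-nutrient values, and the array that stood apart was the 4 h one without phosphate. AT2G33220, a gene for a complex I subunit of the mitochondrion, had 18.2 and 549.0, 30.2-fold higher, beside 180.9 and 121.5. Here the 4 h array was the lowest and the 100 h array the highest of the 4. AT1G78820 had 14.1 and 281.9, 20.0-fold higher, beside 62.7 and 65.5, while its other probe set had 62.1 and 445.3, a log2 ratio of 2.84. AT5G49440 had 19.6 and 386.8, 19.7-fold higher, beside 175.8 and 293.2.

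AT4G13840, also known as CER26, takes part in the elongation of cuticular wax, and it had 15.4 and 249.9, 16.2-fold higher, beside 40.6 and 122.1 in full nutrients. AT3G16370 and AT4G18970 encode esterases or lipases of the GDSL type, and they were 9.47-fold and 7.71-fold higher, from 123.6 to 1169.9 and from 14.7 to 113.4. Both were lowest at 4 h and highest at 100 h without phosphate. AT2G44290, a lipid transfer protein, had 62.2 and 579.6, and AT2G05790, a glycosyl hydrolase of the family that holds beta-1,3-glucanases, had 16.8 and 180.7. TBL45, of the family that acetylates wall polysaccharides, had 39.5 and 338.8, 8.58-fold higher, beside 111.9 and 95.0. COR15B, which encodes a cold-induced protein that protects chloroplast membranes, was also higher at 100 h in full nutrients, with 137.6 and 1314.0 beside 270.0 and 619.1.

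PIP is here a proline iminopeptidase, which removes N-terminal proline, and it had 13.2 and 107.3, 8.13-fold higher. MSRB5 and MSRB6 encode methionine sulfoxide reductases, which repair oxidised methionine. MSRB5 had 73.7 and 568.2. MSRB6, given among the bounds and not among the 20, had 6.0 and 132.9, at least 18.3-fold higher. Both loci are neighbours in the RefSeq gene table and are of 1 family, so cross-hybridisation between their transcripts cannot be told apart from a common change. AT1G61190, a disease resistance protein of the NBS-LRR class, had 25.4 and 227.9. In full nutrients MSRB5, MSRB6, PIP and AT1G61190 had log2 time ratios between -0.25 and 0.20.

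Of these 20 highest genes, 18 had a time ratio under 2-fold in full nutrients. The exceptions were COR15B and AT4G13840, with log2 ratios of 1.20 and 1.59. Of all 4516 probe sets tested in full nutrients, 6.44% were called higher and 12.7% lower. Most probe sets were thus under 2-fold there, and the count of 18 does not set these genes apart. At 100 h, 18 of the 20 were brighter without phosphate than in full nutrients, and the others were AT2G25510 and AT2G22510. Since the 20 were picked for a low 4 h and a high 100 h array, their order on these 2 arrays is fixed by the choice, and the full-nutrient values alone are free of it.

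Over all calls the directions also differed in how often full nutrients shared them. Of all 4516 probe sets tested in full nutrients, 12.7% were called lower and 6.44% higher. A larger shared part among the lower calls is therefore favoured from the start. Of the 733 lower probe sets at the level in both solutions, 349 (47.6%) were also called lower at 100 h in full nutrients, which is 68.3% of the 511 lower there. Of the 613 higher ones, 119 (19.4%) were also called higher in full nutrients, 46.5% of the 256 higher there. The share changed with size in 1 direction of the ratio. Of probe sets at least 4-fold lower without phosphate, 76.9% were called lower in full nutrients, and of those at least 16-fold lower, 95.5%. Of probe sets at least 4-fold higher, 22.9% were called higher in full nutrients, and of those at least 16-fold higher, 21.4% (3 of 14). Among the 349 lower in both, 248 were the lower without phosphate, with median log2 ratios of -2.07 and -1.79. Among the 119 higher in both, 88 were the higher without phosphate, with medians of 1.63 and 1.22. Opposite calls were few, 23 higher without phosphate and lower in full nutrients, and 15 the other way. Across the 4294 probe sets Pearson's r between the ratios was 0.59 and Spearman's rho 0.551, and probe sets are not independent replicates.

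**Figure D3:**
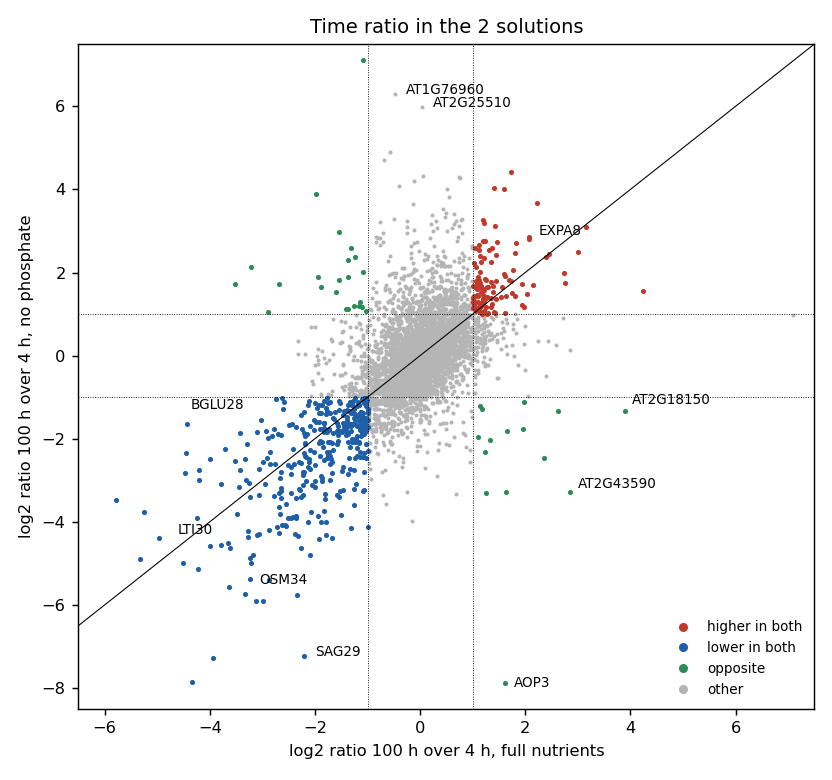
Log2 ratio of 100 h over 4 h in full nutrients (horizontal) and without phosphate (vertical) for 4294 probe sets at the level in both solutions. The solid line marks equal ratios and the dotted lines 2-fold; 349 probe sets were lower in both, 119 higher in both and 23 and 15 opposite, and AT1G76960 and AT2G25510 lie near 0 in full nutrients.

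A test of time was possible only over both solutions. An additive model of time and phosphate on the 4 arrays, fitted with limma over 4756 probe sets, called 6 higher (0.126%) and 90 lower (1.89%) at 100 h at a Benjamini-Hochberg adjusted p under 0.05. All of these were also called by size without phosphate. The model leaves 1 residual degree of freedom, which holds the interaction, so a gene passes when its time ratios in the 2 solutions are large and alike. LTI30 fell with a log2 time effect of -4.08 ± 0.38 (SE) at an adjusted p of 0.0443, and OSM34 with -4.31 ± 0.57 at 0.0457. GH3.3 passed with -3.0 ± 0.36 at 0.045. CHI, with an adjusted p of 0.0558, and ALDH7B4, with 0.0564, did not pass. Higher in both solutions were EXPA8, an expansin that loosens cell walls, at 2.45 ± 0.37 and an adjusted p of 0.0487, AT5G59170, an extensin-like wall protein, and AT2G20870. AT1G75800, of the thaumatin family, and LCR68, of the defensin-like family, also passed, and these 2 were named after their values were seen. LCR68 had 282.9 at 4 h and 1473.4 at 100 h without phosphate, beside 229.1 and 1206.0 in full nutrients. AT5G59170, AT2G20870 and AT1G75800 lay under the floor on both 4 h arrays. At 4 h they had 6.7, 5.9 and 3.6 in full nutrients and 4.4, 2.2 and 5.2 without phosphate. The floor made the 4 h values of each equal, so their time effects are bounds. Some lower calls had both 100 h arrays under it in the same way. Without a floor no higher call remained. Neither AT1G76960 nor AT2G25510 passed. The calls depended on the treatment of dim values and on scaling: quantile normalization, cyclic loess and testing without the filter each left 0 calls, with 983, 959 and 1162 probe sets at an unadjusted p under 0.05.

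A second fit asked whether the time effect differed between the solutions, in which the overall phosphate effect forms the residual. It called 0 of 4756 probe sets, with a smallest adjusted p of 0.143, and 468 at an unadjusted p under 0.05. Of the 695 higher probe sets 237 were among those at an unadjusted p under 0.05, and of the 790 lower ones 132, beside 468 of all 4756. Both groups were picked by the ratio without phosphate, which is part of the tested difference. Larger shares among them are thus favoured by the choice and are no support for a difference. By size, the time ratio without phosphate lay 2-fold or more above that in full nutrients for 517 (12.0%) of 4294 probe sets, and 2-fold or more below it for 408 (9.50%). With a floor at the 45th percentile this fit called 23 higher and 11 lower, with a smallest adjusted p of 0.00825, and with spike-in scaling 2 and 1. The genes below are given by their values in both solutions.

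Gene lists were read against all 1795 named genes tested, of which 267 (14.9%) were higher and 268 (14.9%) lower, with a median log2 ratio of -0.01. The lists were chosen with earlier results of these data known, so their counts describe these 2 arrays. All 5 genes tested of the pathogenesis-related list were lower at 100 h, with a median log2 ratio of -4.34, and in full nutrients the median was -2.38. The 5 were OSM34, AT4G16260, CHI, the chitinase ChiC, with 212.2 at 4 h and 2.90 at 100 h, and the chitinase family gene AT2G43590. AT2G43590 did not follow the others in full nutrients, where it was higher at 100 h. LCR67 and PR-1-LIKE, the remaining genes of the list, were under the level on both arrays. AT2G43620 and its neighbour AT2G43610, given above, are not in the list.

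Photosynthesis genes were all above 0. Of 10 genes tested 7 were higher at 100 h, 3 lay between 0.16 and 0.82, and the median log2 ratio was 1.06, beside 0.62 in full nutrients. LHCB4.3, a light-harvesting protein of photosystem II, had 55.7 at 4 h and 270.3 at 100 h, 4.85-fold higher, beside 95.5 and 149.3 in full nutrients. PSAN, a subunit of photosystem I, had 1414.5 and 3275.2, 2.32-fold higher, beside 2277.9 and 4280.5. For PSAN, LHCB4.1, PSBY, RCA, both probe sets of LHB1B2 and all 3 of PSAE-1 the full-nutrient array was the brighter at both times. For PRK, LHCB4.3 and SBPASE it was the brighter at 4 h only. The probe sets of PSBW, a small photosystem II subunit, disagreed: 1 had 1625.4 and 7595.3, and the other 3963.9 and 6796.1. PRK, the Calvin cycle kinase that makes ribulose bisphosphate, had 713.2 and 1522.1, and RCA had the smallest ratio, 0.16. The count rested on the scaling of bright probe sets. After quantile normalization 3 of the 10 were higher, after cyclic loess 2, and 9 of 10 stayed above 0 in each. RCA then had -0.30 and -0.27.

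Cold, drought and abscisic acid genes split. Of 8 tested, 2 were higher and 4 lower, with a median of -1.29. COR15B and KIN2, both cold-induced, were higher, KIN2 from 1297.4 to 4290.1 by 1 probe set and from 1246.6 to 3966.4 by the other. LTI30 and the dehydrin gene COR47 were lower, COR47 from 1777.9 to 680.0 and from 1098.0 to 261.4 by its probe sets, the first at -0.99 under spike-in scaling. RD2, a desiccation-responsive gene, had a mean log2 ratio of -1.59, and AT2G46140, a late embryogenesis abundant family gene, had 35.1 and 2.90. AT2G44060, of the same family, had -0.98 and LEA4-5 -0.01. KIN2 was lowest at 4 h without phosphate, whereas COR47 was highest there.

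In the cell wall list, 14 of 35 genes reached the level, 4 were higher, 1 was lower and the median was 0.25. EXPA8 had 277.9 and 1948.8, 7.01-fold higher, beside 336.0 and 1421.5 in full nutrients. The expansin gene EXPB1 was higher with a log2 ratio of 1.63, and TBL24 with 2.02, from 11.8 to 47.8. The pectin methylesterase gene ATPMEPCRB was lower by both probe sets, from 60.7 to 2.40 and from 27.2 to 1.30, and the call of the second ended with the higher floor, at -0.65. In full nutrients the log2 time ratio was -0.24 for TBL45, -0.14 for TBL24 and 2.08 for EXPA8. The other 9 genes, among them EXPA4, EXPA15, XTH32 and EXGT-A3, were under 2-fold.

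**Figure D4:**
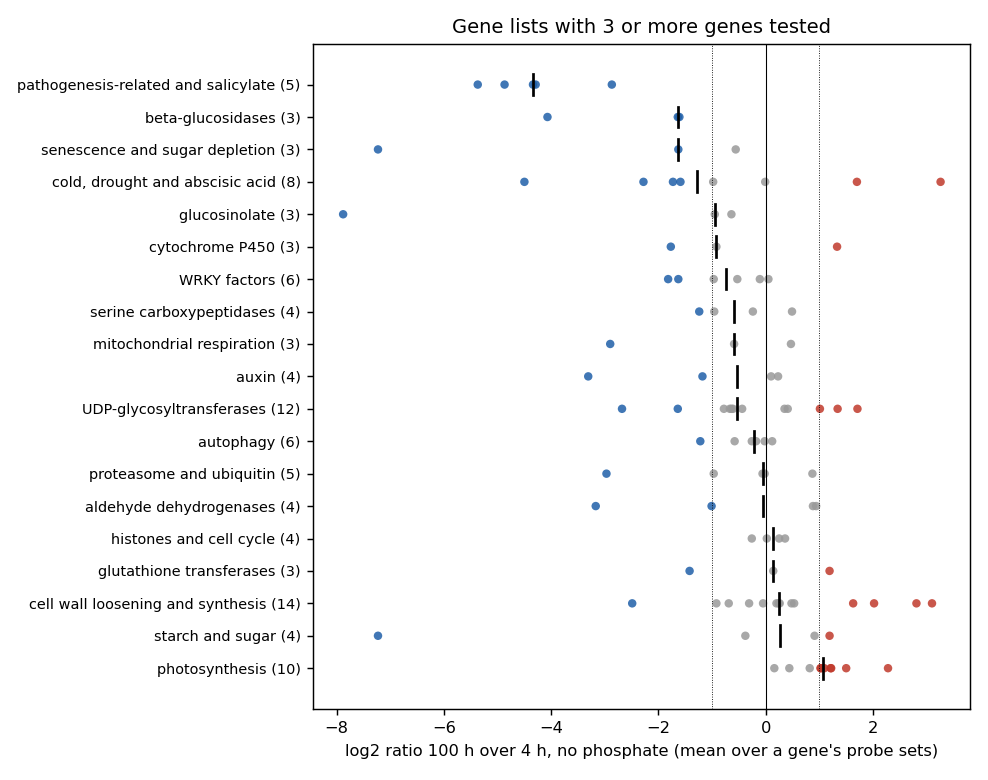
Log2 ratio of 100 h over 4 h without phosphate of each gene (horizontal; points, mean over its probe sets) in the 19 lists with 3 or more genes tested, with the number tested in brackets and the list median as a black bar. Red and blue points are 2-fold or more higher or lower; all 5 pathogenesis-related genes lie at or below -2.87 and all 10 photosynthesis genes above 0.

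The genes of phosphate starvation itself were hardly covered. Of that list only WRKY6 and LPR1 had a named probe set. WRKY6, a factor that represses PHO1, the exporter that loads phosphate into the xylem, had 78.9 at 4 h and 40.2 at 100 h, just under 2-fold, and LPR1 was under the level. In full nutrients WRKY6 had 153.3 and 36.3, so its 4 h arrays were the higher in both solutions. Of 6 WRKY factors tested 2 were lower, WRKY53, a regulator of leaf senescence, from 39.2 to 12.7, and ZAP1, from 252.8 to 80.3 and from 152.9 to 38.5. WRKY22, WRKY47 and WRKY20 were under 2-fold.

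Smaller lists held single genes with large ratios. All 3 beta-glucosidases tested were lower, BGLU15 from 122.0 to 1.20, BGLU25 from 696.9 to 228.8 and BGLU28 from 22.6 to 0.70. In full nutrients BGLU28 had 157.7 and 1.60, so most of its signal lay on that 4 h array. Its 4 h value without phosphate is just past the level, and with a floor at the 45th percentile its log2 ratio went from -1.64 to -0.38, which ends the call. Of 12 UDP-glycosyltransferases, which attach sugars to small molecules, 3 were higher and 2 lower. UGT71D1 had 16.3 and 53.4, UGT72E1 194.2 and 492.5, and UGT87A2 327.5 and 51.2. Of 4 auxin genes, GH3.3 and WES1, both of the auxin-conjugating family, were lower, WES1 at -1.18 and at -0.78 under spike-in scaling, while IAA18 and IAA20 had 0.23 and 0.10.

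Of 6 autophagy genes, all of the ATG8 family that coats autophagosomes, only APG8A was called, from 347.4 to 149.5, and its 4 h array without phosphate was the highest of the 4. Scaled to the spike-ins, APG8A had -0.82 and was not called, and the median of the list went from -0.22 to 0.18, with 4 of 6 genes above 0. ATG8B, ATG8C, ATG8D, ATG8E and ATG8F lay between -0.58 and 0.12. Of 5 ubiquitin genes only UBP18, a ubiquitin protease, was called, from 56.7 to 4.60. All 4 genes of the histone and cell cycle list were under 2-fold, between -0.26 and 0.36: the histone genes HIS1-3, HIS4 and HTB2, and PRL, a replication factor of the MCM family. Of the mitochondrial list SDH1-1 was lower, SDH3-2 had -0.59 and NdhS, which acts in the chloroplast NDH complex despite its place in that list, had 0.47. Of 4 aldehyde dehydrogenases ALDH7B4 and ALDH10A9 were lower, the latter at -1.01 and under 2-fold after each rescaling, and ALDH11A3 and ALDH3F1 had 0.88 and 0.94. Of 3 glutathione transferases GSTU18 was higher and GSTF3 lower, and of 3 cytochromes P450 CYP71B29 was higher and CYP71B6 lower. Of 4 serine carboxypeptidases only SCPL49 was called, from 366.0 to 155.4, and it was under 2-fold at -0.83 under spike-in scaling. Of 4 starch and sugar genes SWEET17, a fructose transporter of the vacuole, was higher, from 30.6 to 69.8, while SBE2.2 and APL3 of starch synthesis had 0.91 and -0.38. The 3 genes of the senescence list were SAG29, WRKY53 and YLS5, the last with -0.51 and -0.61 by its probe sets.

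Among the brightest named genes, AT1G07590 had 8640.0 and 6198.9, AT2G45180 had 4665.1 and 6092.0, and LHCB4.1 had 4526.7 and 7999.5. ECS1 had a larger ratio, with 2847.9 and 9010.9, 3.16-fold higher, beside 6163.2 and 6417.0 in full nutrients, so its 4 h array without phosphate was the lowest and its 100 h array the highest.

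Agreement between probe sets of a gene gives, beside the spread of the spike-ins, a measure of error inside an array. Among 90 genes with 190 probe sets tested, 26 genes had all probe sets called in 1 direction, 42 had none called, 22 had some called and 0 had opposite calls. Within a gene, the log2 ratios of its probe sets had a pooled SD of 0.54, which leaves out the spread between plants and between hybridisations. Whether probe sets of a gene share probes was not checked, and ratios with 1 array at the floor were included. This SD may therefore be too small. Of 314 pairs of neighbouring genes tested, 7 were both higher, 7 both lower and 19 opposite. Over all 1795 named genes tested 14.9% were higher and 14.9% lower. Such shares alone give a few pairs of each kind, so the counts do not show that neighbours changed together. The pair BGLU15 and BGLU28 was lower together, though the call of BGLU28 ended with the higher floor. The pair MSRB5 and MSRB6 was higher together.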

How the data were processed

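Biotin-labelled cRNA from leaf total RNA was hybridised to Affymetrix arrays, per the labels' protocols. The authors deposited 1 linear intensity per probe set and array, scaled alike before deposit. The software, background correction and summary method were not given in the sources used here. Precision is limited by having 1 array per group. Of 8297 probe sets, 50 controls were left out. The platform annotation listed 3864 probe sets, 3794 with 1 gene and 70 with several, which were left unnamed with the 4383 not listed; 3784 were matched to 3592 loci of the RefSeq table (TAIR10.1, names and neighbours only).

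The floor (7.25) is each array's 30th percentile, averaged, and the level (22.45) each array's median, averaged. log2 ratios were formed after the floor was set, probe sets of a gene were averaged for lists, and a ratio with 1 array at the floor was given as a bound. limma 3.58.1 (R 4.3.3; lmFit, eBayes, two-sided, Benjamini-Hochberg) gave the fits, checked on simulated data; other steps used Python 3.11.15. With 1 array per group, these p-values do not measure the spread between replicate plants or arrays. The residual holds the interaction in the first fit and the phosphate effect over both times in the second, besides any error. Either may be biological or technical.

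Named genes were the 20 largest ratios in each direction above the floor, the 6 brightest bounds in each direction, up to 4 genes of each list with 3 or more tested, the 8 largest differences from the full-nutrient ratio in each direction, the 6 brightest genes and the phosphate starvation list, besides list genes given to complete a list. The comparison, its lists and this rule were chosen with earlier results of these data known. Other floors, filters, normalizations and thresholds were tried. No promoter sequence was used here, so promoter motifs were not searched.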

Additional observations from a re-analysis of the deposited data

Results flagged for a closer look

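For 4 of the genes picked by the rule above, the time ratio passed 2-fold in opposite directions in the 2 solutions. All 4 were lower at 100 h without phosphate and higher in full nutrients. Among the 4294 probe sets at the level in both solutions, 15 went this way and 23 the other. With 1 array at each point the difference was not tested by replicates, and the limma fit of the difference called none of the 4. AOP3 had a log2 ratio of -7.88 without phosphate, a bound, and 1.61 in full nutrients. AT2G43590, of the chitinase family, had -3.28 (a bound) and -2.46 by its probe sets without phosphate, and 2.86 and 2.35 in full nutrients. Its intensities were 70.2 at 4 h and 2.10 at 100 h without phosphate, beside 42.6 and 309.4. AT4G29030 had -1.34 and 2.62, with 41.9 and 16.5 beside 17.1 and 105.4. AT2G18150, of the peroxidase family, had -1.33 and 3.89, with 65.2 and 25.9 beside 8.90 and 131.8. Under spike-in scaling AT4G29030 had -0.94 and AT2G18150 -0.93 without phosphate, both under 2-fold. In AT2G43590, AT4G29030 and AT2G18150 the full-nutrient array at 100 h was the brightest of the 4, and in AOP3 the 4 h array without phosphate was.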

How the results depend on the processing

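No direction of a called value was reversed under the alternatives run. Of 965 recomputed ratios of named probe sets, 914 stayed within 1 SD (0.54) of the reported value. The other 51 moved further, 31 of them with the higher floor. Filters and levels change which probe sets are tested but not their ratios, so part of the 914 could not move. Spike-in scaling shifts ratios above the floor by about 0.40, which is under 0.54. The counts of 695 higher and 790 lower probe sets became 431 and 424 with the level at the 75th percentile, 207 and 146 with both arrays at 100 or more, and 164 and 248 at 4-fold. Scaled to the spike-ins, 1365 were higher. With a higher floor, no floor, no filter, quantile normalization, cyclic loess or plain probe sets only, both counts stayed within 1.5 times.

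The cold list's median was -0.50 without the filter. The cell wall median was 2.81 with the stricter level and 1.25 with both arrays at 100 or more, where fewer genes are tested. The WRKY median was -1.82 with the stricter level and -0.13 under spike-in scaling.

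The limma calls of time, 6 higher and 90 lower, with a floor at the 45th percentile became 89 and 276, and 0 and 4 without a floor. Without the filter they were 0 and 0 (1162 at an unadjusted p under 0.05), after quantile normalization 0 and 0 (983), after cyclic loess 0 and 0 (959), and under spike-in scaling 0 and 27. The fit of the difference, with 0 calls as reported (468 unadjusted), gave 23 higher and 11 lower with the higher floor and 2 and 1 under spike-in scaling. The cause was not tested. No paired analysis was possible because each group has 1 array. Signal over background limits the dim probe sets: 3713 lay under the level on both arrays.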
